A study of Mus musculus with 15 samples.

Results

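Complement is a cascade of plasma and cell surface proteins that marks targets and opens their membranes. In the classical pathway the proteases C1r and C1s cut C4 and C2, in the lectin pathway MASP proteases do so, and in the alternative pathway factor B joins C3b to form a convertase that cuts more C3. Regulators such as the C1 inhibitor, CD55 and CD59 hold the cascade back on host cells. Most circulating complement is made in the liver, but epithelial cells, carcinoma cells included, also transcribe C3, factor B, C1r and C1s, and several of these genes are known to respond to interferons and to other inflammatory signals.

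The genes described here were 9 complement components and regulators, chosen by symbol, out of 14583 genes that are in at least 1 of 4 deposited limma tables. They were C1ra, C1s1, C4b, C2, C3, Cfb, Serping1, Cd55 and Cd59a, and they were chosen with earlier results of these data known. Of these, 6 are in at least 1 table and 5 are in all 4. C2, Cd55 (chromosome 1, 130439027 to 130462744) and Cd59a (chromosome 2, 104095801 to 104115354, both GRCm38) are in none of the 4 tables, so no value is given for them. Serping1 is in 3 tables and not in that of apoDBs against vehicle. The 4 comparisons cover 15 samples of 4T1, a mouse mammary carcinoma line, in 5 conditions of 3 samples. In 2D culture with 2% FBS, Padi4KO recipient cells, a genotype that the study's methods give, received nuclear expulsion products (NEPs, labelled exsporosi), apoptotic debris (apoDBs) or vehicle. NEPs came from donor cells with intact Padi4 and apoDBs from Padi4-/- donor cells. Both donors carried an inducible caspase-9 (iCasp9), which the drug AP1903 switched on, and debris of 5000 donor cells was added per 500 recipient cells. Spheroids of Padi4WT or Padi4KO cells grew in ultralow attachment plates for 3 days and in 75% Matrigel for 7 days. RNA from donor debris and RNA of the recipient cells cannot be told apart in these co-cultures, nor can fewer cells of a type and less RNA per cell.

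Each table gives a ratio between conditions and a limma p-value for a gene. Values per sample, depth and the spread between replicates were not analysed here, so no error is attached to a ratio. Whether the 3 samples of a condition were separate cultures is not stated in the labels, and the p-values measure the spread between those samples, which may be technical. Ratios are given as folds or on the log2 scale. The false discovery rate (FDR) was calculated per table from the p-values of every gene listed, and a gene is said to have risen or fallen at an FDR below 0.05. Padi4, the targeted gene, was 2.06 higher on the log2 scale in Padi4WT than in Padi4KO spheroids (limma, FDR 0.000542). In 2D culture its log2 fold changes were 0.15 for NEPs against vehicle (FDR 0.109), -0.84 for apoDBs against vehicle (FDR 0.000324) and 1.01 for NEPs against apoDBs (FDR 1.19e-06). Of 6 epithelial markers, 5 are in all 4 tables. Of 7 macrophage markers, 2 are (Csf1r and Cd68), while Adgre1, Ptprc and Tyrobp are in none, and 0 of 3 endothelial markers are in any table. Of 6 fibroblast markers, only Pdgfra is in all 4 tables, and 3 are in none.

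With NEPs against vehicle, 5 of the 6 measured genes rose and 0 fell, against 24.3% of all 13541 genes that rose and 31.1% that fell. Their median log2 fold change was 2.51, against -0.05 for all genes in that table. With NEPs against apoDBs, 5 of 6 rose and 0 fell, where 23.4% of all genes rose and 31.4% fell, and the medians were 2.19 for these genes and -0.06 for all. With apoDBs against vehicle, 3 of 5 rose and 0 fell, where 22.9% of all genes rose and 22.6% fell, and the medians were 0.31 and 0.01. In spheroids, 2 of 6 were higher in Padi4WT cells and 2 were lower, where 21.7% of all genes were higher and 26.1% lower, and the medians were 0.16 and -0.08. Under the stricter limits of the study's methods, with FDR limited to 0.0001 and the absolute log2 fold change to more than 2, 3 genes (Cfb, C1s1 and Serping1) were higher with NEPs against vehicle, and the same 3 were higher against apoDBs. Of all genes in those comparisons, 2.26% and 1.99% were higher at these limits. With apoDBs against vehicle only Cfb was higher at these limits, as were 0.173% of all genes. In spheroids 0 of the 6 were higher at these limits, where 2.54% of all genes were. In each of the 4 comparisons 0 of the measured genes were lower at these limits. The share of all genes lower at these limits was not calculated, so this count cannot be weighed. The comparisons of 2D cultures share samples pairwise, so their counts are not independent of each other. Serping1 is among the genes that rose in both comparisons with NEPs, and in 2D culture it is listed only there. It may have been listed through the NEP samples alone, so its rise adds no support to these counts and medians. Without Serping1 the middle log2 fold changes were those of C1ra, 1.79 against vehicle and 1.86 against apoDBs.

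**Figure D1:**
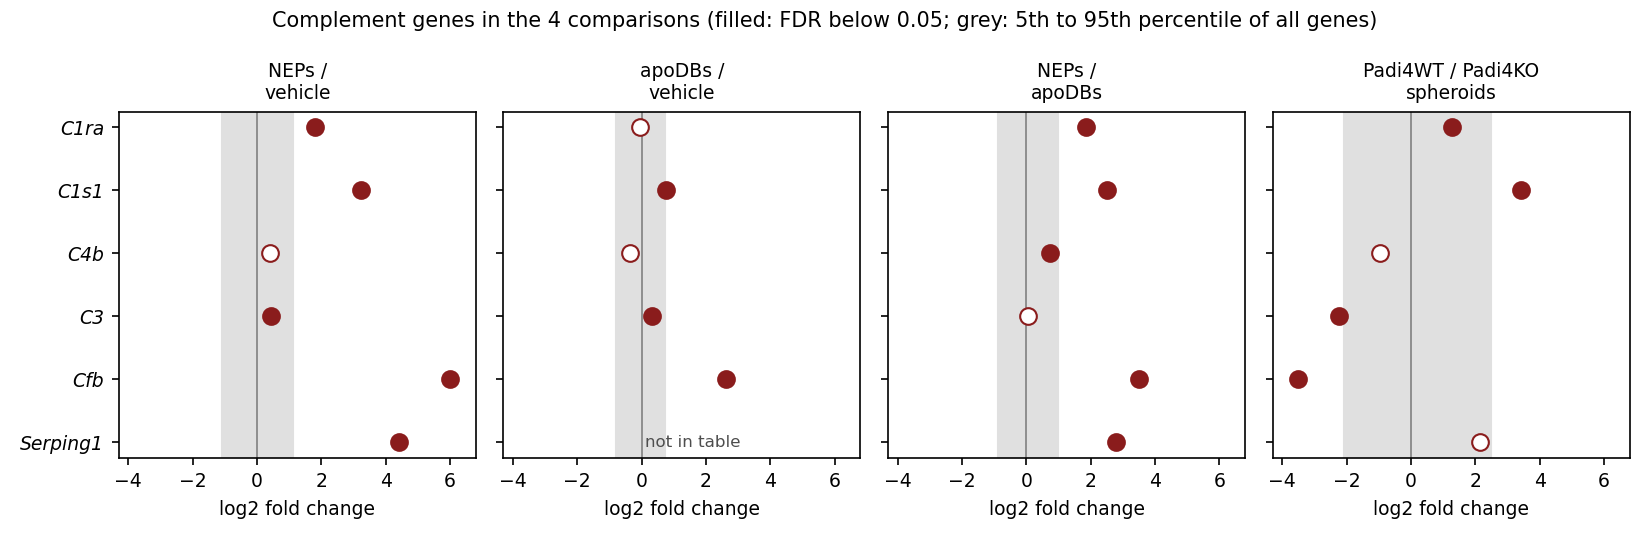
Log2 fold change (horizontal axis) of the 6 measured complement genes (rows) in the 4 comparisons (panels), with filled points for an FDR below 0.05 and a grey band from the 5th to the 95th percentile of all genes in that table. Cfb lies at 6.01 with NEPs against vehicle and at -3.52 in spheroids, while C3 lies within the band in the 3 comparisons of 2D cultures.

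The proteases of the C1 complex are C1r, which activates itself once C1q is bound, and C1s, which C1r activates and which then cuts C4 and C2. C1s1 (ENSMUSG00000038521.17), a gene for C1s, lies on chromosome 6 of GRCm38 from 124530345 to 124542359 on the minus strand. It rose 9.36-fold with NEPs against vehicle (limma, FDR 4.38e-09). It rose 5.68-fold against apoDBs (FDR 7.01e-09) and 1.68-fold with apoDBs against vehicle (FDR 0.000549). In spheroids C1s1 was 10.7-fold higher in Padi4WT than in Padi4KO cells (FDR 0.000537), so it was the one gene of the 6 that rose in all 4 comparisons. C1ra (ENSMUSG00000055172.10), a gene for C1r, lies beside it on the plus strand from 124512405 to 124523443. It rose 3.46-fold with NEPs against vehicle (FDR 3.02e-07) and 3.64-fold against apoDBs (FDR 6.87e-09). Its signed fold change with apoDBs against vehicle was -1.03, which means a slightly lower value, with an FDR of 0.744. In spheroids C1ra was 2.42-fold higher in Padi4WT cells (FDR 0.0103).

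C1ra and C1s1 each have a near copy on the same chromosome, and reads from copies can be assigned to the wrong gene. Of the 50-base windows in C1ra transcripts of GENCODE M21, 48.0% also occur in transcripts of C1rb, and 21.8% of those in C1s1 occur in C1s2. How the counting treated such reads is not given in the sources used here. The copies are in the tables as well, as is C1rl, a C1r-like protease gene next to C1ra. All 5 genes of this stretch rose with NEPs, C1s2 by 10.2-fold, C1rl by 4.04-fold and C1rb by 3.77-fold against vehicle, with FDRs from 2.02e-06 to 8.00e-05. Against apoDBs, C1s2, C1rb and C1rl rose on the log2 scale by 2.39, 1.80 and 1.34, with FDRs of 2.29e-06, 7.05e-05 and 0.000893. With apoDBs against vehicle the C1s genes rose, C1s2 by 1.04 on the log2 scale (FDR 0.00702), while the log2 fold changes of C1ra, C1rb and C1rl were -0.05, 0.13 and 0.66 and their FDRs were 0.0893 or higher. In Padi4WT spheroids C1s2 and C1rl were higher by 2.68 and 2.51 (FDR 0.000676 and 0.000444), and C1rb had a log2 fold change of 0.83 with an FDR of 0.171. Lpcat3, the protein-coding gene that follows the stretch, had log2 fold changes from -0.24 to -0.07 in the 4 comparisons. It fell with NEPs (FDR 0.0138 against vehicle and 0.024 against apoDBs), where the C1r and C1s genes rose. Clstn3, the neighbour on the other side, is in none of the tables.

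**Figure D2:**
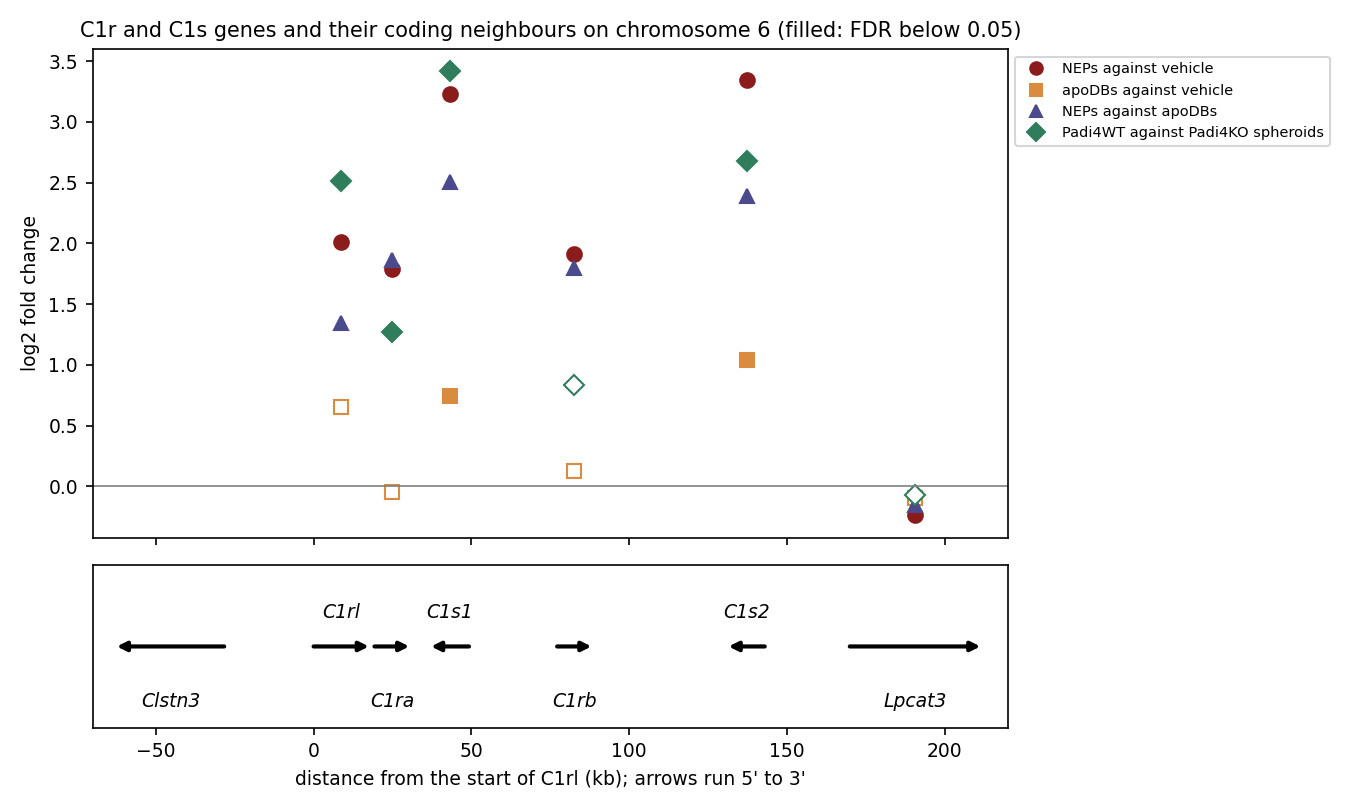
Log2 fold change (upper panel) of the C1r and C1s genes and their protein-coding neighbours, placed by distance in kb from the start of C1rl (arrows in the lower panel run 5' to 3'), with filled points for an FDR below 0.05. The 5 complement genes lie between 1.34 and 3.35 in both comparisons with NEPs, and Lpcat3 lies between -0.24 and -0.07.

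C4 is the protein that C1s cuts first, and its larger fragment binds to the target surface. C4b (ENSMUSG00000073418.4; chromosome 17 of GRCm38, 34728380 to 34743882) encodes it in the mouse. The log2 fold change of C4b was 0.40 with NEPs against vehicle (FDR 0.365) and -0.36 with apoDBs against vehicle (FDR 0.508). It was 0.74 higher with NEPs than with apoDBs (FDR 0.0343), and the comparison of Padi4WT with Padi4KO spheroids gave -0.95 (FDR 0.127). C4b therefore passed the test only for NEPs against apoDBs, at the weakest FDR among the 5 genes that rose there. Of its 50-base windows, 34.6% also occur in C4a, which had log2 fold changes from -0.23 to 0.05 in the 2D comparisons with FDRs of 0.324 or higher, and -1.55 in spheroids, where it was lower in Padi4WT cells (FDR 0.0362). Tnxb, the protein-coding neighbour of C4b on 1 side, was lower in all 4 comparisons, with log2 fold changes from -1.57 to -0.82.

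C3 is the protein on which all 3 pathways meet. Its gene (ENSMUSG00000024164.15) lies on chromosome 17 from 57203970 to 57228136. C3 rose 1.36-fold with NEPs against vehicle (limma, FDR 0.000679) and 1.24-fold with apoDBs against vehicle (FDR 0.00718). Between NEPs and apoDBs it had a fold change of 1.03 with an FDR of 0.578. In spheroids C3 was lower in Padi4WT cells, with a signed fold change of -4.76 (FDR 0.00157). C3 thus ranked 1973rd from the top of 13541 genes with NEPs against vehicle, but 622nd from the bottom of 14053 genes in spheroids. No 50-base window of C3 occurs in transcripts of another gene. Among 12686 genes in all 4 tables, the 5 whose 4 log2 fold changes lay nearest to those of C3 were Macc1, the gene listed as RP24-177J9.4, Sgk3, Tfcp2l1 and Cpeb4, at Euclidean distances from 0.060 to 0.33. They are listed for the shape of their values alone.

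Promoter sequences show whether genes that moved together share short motifs. RefSeq windows of GRCm38.p6 were found for 5 of the 9 members, C3, C1ra, C1s1, Cd55 and Cd59a. The 250 bases before the start were searched on both strands for the interferon-stimulated response element (ISRE, searched as GAAANNGAA), the gamma-activated site (GAS, TTCNNNGAA), an NF-kB motif (GGANTTNCC) and a C/EBP motif (TTGCNNAA). These occur in 7.16%, 7.18%, 3.09% and 9.55% of 27025 promoters. ISRE and GAS letters can overlap each other. Among the 3 measured members with a window, C3 held the C/EBP motif from 45 bases before its start and C1s1 from 242 bases before it, and none of the other motifs was found in these windows. C1ra held none of the 4 motifs. Of the unmeasured members, Cd59a held the ISRE from 187 bases before its start. Beside C1s1 on chromosome 6, C1rl held the C/EBP motif from 243 bases before its start and C1rb from 135, and C1rb also held the GAS from 119. The windows of C3 (chr17:57228137-57228386) and C1s1 (chr6:124542393-124542609), both on the minus strand, are printed 5' to 3' since these genes moved in opposite directions in spheroids, with the C/EBP motif in capitals. C1s1 has 2 RefSeq starts, and the match at 242 bases was found before 1 of them. Its printed window holds 217 bases, because bases that follow an outer annotated start were left out. The 242 bases are therefore not counted from the end of the printed window.

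C3: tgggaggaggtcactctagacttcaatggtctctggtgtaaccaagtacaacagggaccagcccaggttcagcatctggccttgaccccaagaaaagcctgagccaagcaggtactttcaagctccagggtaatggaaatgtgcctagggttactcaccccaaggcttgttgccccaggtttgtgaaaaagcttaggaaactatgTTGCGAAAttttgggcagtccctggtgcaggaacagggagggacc
C1s1: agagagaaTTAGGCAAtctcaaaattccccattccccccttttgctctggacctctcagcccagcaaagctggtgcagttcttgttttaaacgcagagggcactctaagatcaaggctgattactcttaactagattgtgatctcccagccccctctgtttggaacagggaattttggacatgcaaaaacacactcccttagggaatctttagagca

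Both windows hold the motif once, so its presence was shared by a gene that was lower and a gene that was higher in Padi4WT spheroids. Motif matches are descriptions of these letters and do not show that a factor was bound.

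Factor B, the product of Cfb (ENSMUSG00000090231.10; chromosome 17, 34856374 to 34862518, minus strand), is the protease of the alternative pathway convertase. It showed the highest fold of the 6 genes in both comparisons with NEPs, and of the 5 genes listed for apoDBs against vehicle, where Serping1 is missing. Cfb rose 64.4-fold with NEPs against vehicle (FDR 2.56e-09) and ranked 37th from the top of the table. It rose 6.17-fold with apoDBs against vehicle (FDR 1.90e-05), where it ranked 36th of 13307 genes. Directly compared, Cfb was 11.3-fold higher with NEPs than with apoDBs (FDR 7.30e-10), so it differed between the debris types as well as from vehicle. In Padi4WT spheroids Cfb was lower than in Padi4KO spheroids, with a signed fold change of -11.5 and an FDR of 0.0256. The order of the 6 genes was accordingly turned around for Cfb, which stood highest in co-culture and lowest in spheroids. Both spheroid FDRs of the genes that fell, those of Cfb and C3, were above the stricter limit of 0.0001. Of the genes in all 4 tables, those nearest to Cfb were the one listed as RP23-145I16.3, Nos2, the one listed as RP23-432G17.1, Mx1 and Cldn1, at distances from 1.53 to 3.48. The nearest genes thus lay farther from Cfb than those around C3 did from C3. Nos2, the inducible nitric oxide synthase, had log2 fold changes of 4.56, 1.92, 2.69 and -3.57 in NEPs against vehicle, apoDBs against vehicle, NEPs against apoDBs and spheroids, where Cfb had 6.01, 2.62, 3.50 and -3.52.

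C2, the classical pathway relative of factor B, lies directly upstream of Cfb on the same minus strand (34862604 to 34898265). The annotation also holds Gm20547, a protein-coding gene from 34856412 to 34882042 that overlaps both on the same strand. Of the exonic bases of Cfb, 79.5% are also exonic in Gm20547, and of those of C2, 42.8%. Of the 50-base windows of Cfb transcripts, 73.0% also occur in Gm20547. Neither C2 nor Gm20547 is in any of the 4 tables. What that overlap did to the counts of Cfb and C2 was not tested. Nelfe, the gene on the other side of Cfb, had log2 fold changes between -0.48 and 0.48 in the 4 comparisons, and Zbtb12, the gene beside C2, had values between -0.56 and 0.38, which are smaller in size than those of Cfb in each comparison.

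Serping1 (ENSMUSG00000023224.12; chromosome 2, 84765387 to 84775444) encodes the C1 inhibitor, a serpin that inactivates C1r, C1s and the MASP proteases. It rose 21.5-fold with NEPs against vehicle (FDR 7.57e-06) and 6.83-fold against apoDBs (FDR 1.02e-05). Serping1 was thus the second highest of the 6 genes in both comparisons with NEPs. In 2D culture it is listed only in those comparisons, so it may have been listed through the NEP samples alone, where it is high. Its rise in them is therefore a description and adds no support. Of the proteases its product inhibits, the C1r and C1s genes and Masp1 also rose in both. Masp2 fell with NEPs against vehicle but was higher with NEPs than with apoDBs. In spheroids the fold change of Serping1 was 4.45 with an FDR of 0.0999, which did not pass the test. The table of apoDBs against vehicle does not list it. The difference between its log2 fold changes against vehicle and against apoDBs was 1.66, which stands in for a value of apoDBs against vehicle but has no test. Where a gene had all 3 values in 2D culture, as 5 did, subtracting the apoDB value from the NEP value against vehicle came within 0.118 of the direct comparison on the log2 scale, and Cfb had that gap. Cd55 and Cd59a, the membrane regulators that break down convertases and block the terminal pore, have no value in any table. No test of the surface regulators among the 9 genes was therefore possible.

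**Figure D3:**
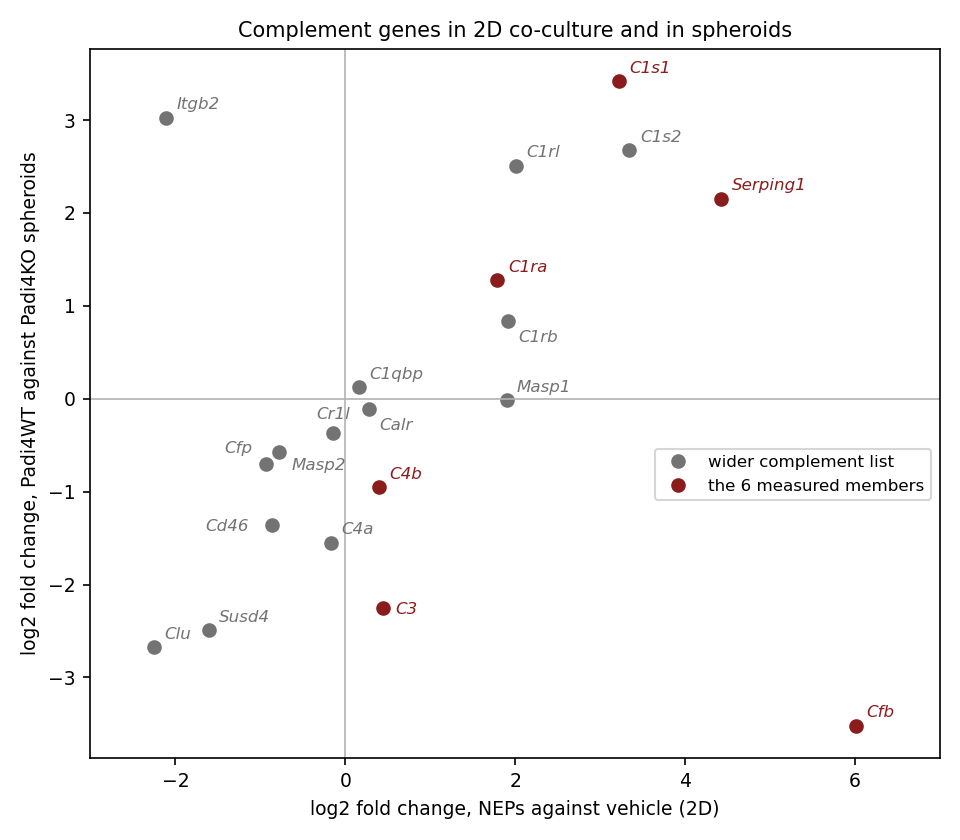
Log2 fold change with NEPs against vehicle in 2D culture (horizontal axis) and in Padi4WT against Padi4KO spheroids (vertical axis) for the 6 measured members and for the 14 genes of the wider complement list that have both values. C1s1, C1ra and Serping1 lie above 0 on both axes, while Cfb and C3 lie above 0 in co-culture and below 0 in spheroids.

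Co-culture and spheroids set the 6 genes apart. C1s1 and C1ra rose in both comparisons with NEPs and were higher in Padi4WT spheroids, while Cfb rose with NEPs and C3 rose with NEPs against vehicle, yet both were lower in Padi4WT spheroids. Whether these effects differ between the systems was not tested, since it needs values per sample. Epithelial markers also moved in spheroids, with log2 fold changes of -3.12 for Cdh1, -2.84 for Epcam, -2.21 for Krt14, 0.90 for Krt18 and 1.23 for Krt8, and their median was -2.21. Over the same 5 epithelial markers the medians were -0.26 with NEPs against vehicle, where 3 fell and 0 rose, 0.44 with apoDBs against vehicle, where 3 rose and 1 fell, and -0.76 with NEPs against apoDBs, where 1 rose and 3 fell. Of the macrophage markers, Cd68 rose by 1.06 with NEPs against vehicle and was 1.71 higher in Padi4WT spheroids. Csf1r had log2 fold changes of -1.14 with NEPs against vehicle, where it fell, and of -3.01 in spheroids with an FDR of 0.109. The fibroblast markers Pdgfrb and Col1a1 are listed for spheroids alone, with log2 fold changes of 4.56 and -4.19. The part of these markers in the complement values was not tested.

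A wider list of 50 complement genes, which excludes the 9, gives the rest of the system, and 18 of them are in at least 1 table. The C1q chains, the terminal components C5 to C9 and the receptors C3ar1 and C5ar1 are in none of the tables. With NEPs against vehicle, 6 of 15 measured genes of the list rose and 6 fell, with a median log2 fold change of -0.14. Of all genes there, 24.3% rose and 31.1% fell. Against apoDBs, 7 of 15 rose and 3 fell, with a median of 0.05, where 23.4% of all genes rose and 31.4% fell. With apoDBs against vehicle, 1 of 14 rose and 6 fell, with a median of -0.20, where 22.9% of all genes rose and 22.6% fell. In spheroids 6 of 17 were higher in Padi4WT cells and 4 lower, with a median of -0.01, where 21.7% of all genes were higher and 26.1% lower. The medians of the wider list thus lay between -0.20 and 0.05. Those of the 6 genes lay above 2 in both comparisons with NEPs, but they include Serping1, which may have been listed through the NEP samples alone. Without Serping1 the middle values were those of C1ra, 1.79 against vehicle and 1.86 against apoDBs. The contrast between the lists was not tested. The members were chosen with earlier results of these data known, so the contrast may follow from that choice.

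Among the lectin pathway proteases, Masp1 rose 3.73-fold with NEPs against vehicle (FDR 1.34e-07) and fell with apoDBs against vehicle, with a signed fold change of -3.87 (FDR 6.67e-05). Between NEPs and apoDBs Masp1 was 14.3-fold higher with NEPs (FDR 1.24e-08), a larger fold than that of Cfb, and in spheroids its log2 fold change was -0.01 (FDR 0.949). Masp2 fell with both kinds of debris, with log2 fold changes of -0.78 for NEPs (FDR 0.0156) and -1.35 for apoDBs (FDR 0.00276) against vehicle. Compared directly, Masp2 was 0.55 higher with NEPs than with apoDBs (FDR 0.0402). Fcna, which encodes the recognition protein ficolin A, is listed for spheroids alone, where it was 11.3-fold higher in Padi4WT cells (FDR 0.00634).

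The measured regulators other than Serping1 fell or did not pass the test in co-culture. Clu, the gene of clusterin, which blocks assembly of the terminal complex, fell in all 4 comparisons, with log2 fold changes of -2.26 with NEPs against vehicle (FDR 1.69e-09), -0.54 with apoDBs against vehicle (FDR 0.000596), -1.68 with NEPs against apoDBs (FDR 1.12e-08) and -2.67 in Padi4WT spheroids (FDR 2.94e-05). Susd4, which encodes a membrane inhibitor of complement, had log2 fold changes of -1.61 with NEPs against vehicle (FDR 0.000299), -1.45 against apoDBs (FDR 0.000913) and -2.49 in spheroids (FDR 8.01e-05), with -0.16 for apoDBs against vehicle (FDR 0.485). Cd46, a surface cofactor for cleavage of C3b and C4b, fell with both kinds of debris against vehicle and was lower in Padi4WT spheroids, with log2 fold changes of -0.86 for NEPs, -0.92 for apoDBs and -1.36 for spheroids (FDR 0.000962, 0.0019 and 0.00711). Serping1 and Clu, which are both fluid-phase inhibitors, accordingly moved in opposite directions with NEPs.

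Receptor genes showed no common direction. Itgb2, the beta chain of complement receptors 3 and 4, fell in each comparison of 2D cultures, with log2 fold changes of -2.11 for NEPs against vehicle (FDR 2.29e-07), -0.97 for apoDBs against vehicle (FDR 0.000258) and -1.16 for NEPs against apoDBs (FDR 8.84e-07), and was 8.14-fold higher in Padi4WT spheroids (FDR 5.35e-06). Its partner chains Itgam and Itgax are in none of the tables. C5ar2, a receptor for C5a, is listed for spheroids alone and was 17.0-fold higher in Padi4WT cells (FDR 0.00139). Cd93 rose 2.01-fold with NEPs against vehicle (FDR 0.0156) and 2.32-fold against apoDBs (FDR 0.00773), and the other tables do not list it.

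**Figure D4:**
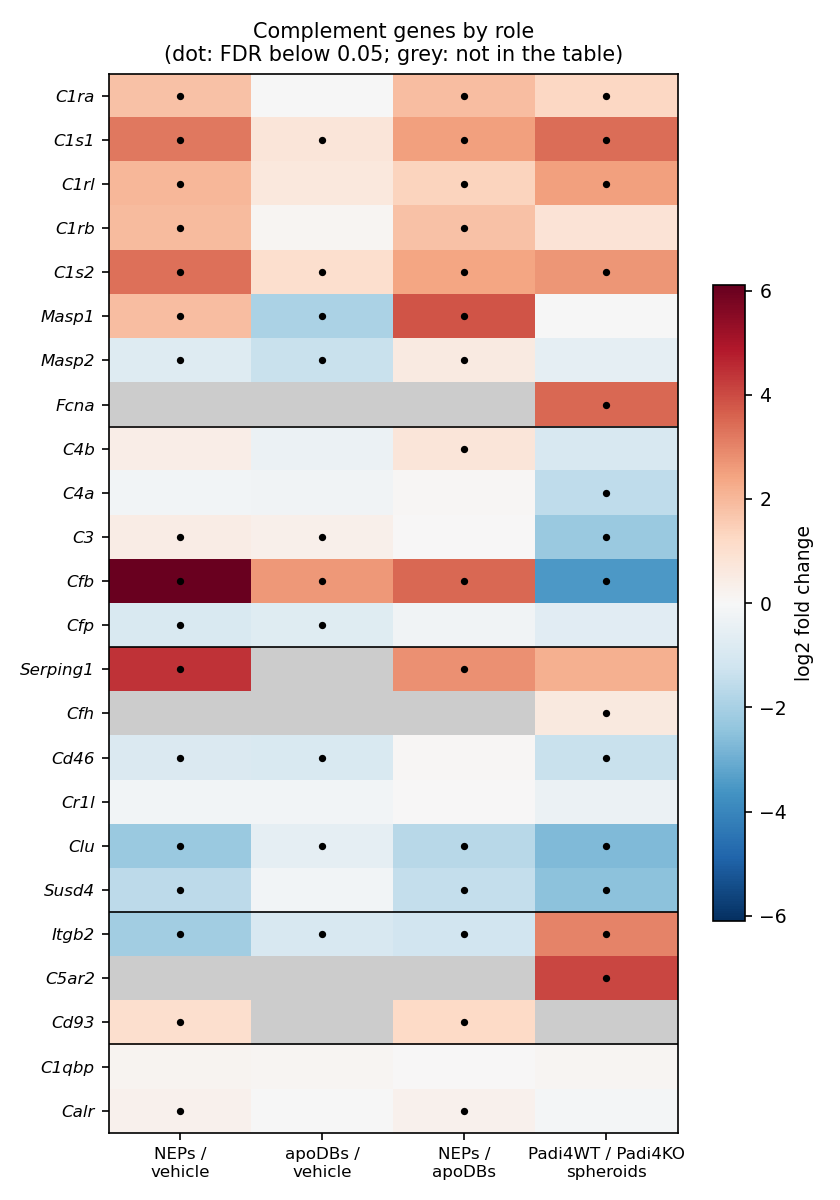
Log2 fold change (colour) of the measured complement genes in the 4 comparisons (columns), with rows grouped from top to bottom as initiating proteases and lectins, components, regulators, receptors and C1q-binding proteins; a dot marks an FDR below 0.05 and grey marks a gene outside that table. The 5 C1r and C1s rows are red in both columns with NEPs, and the row of Clu is blue in all 4 columns.

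Acute phase genes are plasma protein genes that inflammation raises, often together with C3 and Cfb. Of a list of 24, 8 are in at least 1 table. With NEPs against vehicle, 6 of 6 measured acute phase genes rose, with a median log2 fold change of 2.21 from 0.38 to 5.57. Of all genes there, 24.3% rose and 31.1% fell. Hp is among the 6, and in 2D culture it is listed only where NEPs are compared. It may have been listed through the NEP samples alone, so it adds no support to this count and median. Without Hp the middle value was 2.01, that of Serpina3g. With apoDBs against vehicle 4 of 5 rose, with a median of 1.51, where 22.9% of all genes rose and 22.6% fell. Between NEPs and apoDBs 4 of 6 rose and 0 fell, with a median of 0.56, where 23.4% of all genes rose and 31.4% fell. Hp is among these 4 and adds no support here either. Without Hp the middle value was 0.55, that of Cp. In spheroids 1 of 6 was higher in Padi4WT cells and 2 were lower, with a median of -0.19. Of all genes in spheroids, 21.7% were higher and 26.1% lower. Saa3 had 5.57, 1.98 and 3.69 in NEPs against vehicle, apoDBs against vehicle and NEPs against apoDBs, where Cfb had 6.01, 2.62 and 3.50. Saa3 is not listed for spheroids, where Cfb had -3.52. Lcn2 rose by 1.32 with NEPs and by 1.34 with apoDBs against vehicle, had 0.01 between NEPs and apoDBs (FDR 0.94), and was lower in Padi4WT spheroids with a log2 fold change of -1.45 (FDR 0.0236). The signs of Lcn2 in the 4 comparisons were those of C3, but C3 did not pass the test between NEPs and apoDBs either (FDR 0.578). Other genes of the list differed in spheroids. Serpina3g was higher in Padi4WT cells with a log2 fold change of 3.02 (FDR 0.00132), and Lbp was lower with -2.79 (FDR 0.000775).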

How the data were processed

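RNA was extracted with the Zymo Quick-DNA/RNA kit and sequenced on an Illumina NextSeq. The authors quantified it with the CCBR Pipeliner and compared groups with limma. The aligner, counter, low-expression filter and normalization are not given in the sources used here. Submitters' notes name mm9. However, at least 99.9% of the Ensembl identifiers in a table are in GENCODE M21 (GRCm38), from which positions were taken. The deposited fold changes are a signed score (the negative inverse stands for any ratio under 1), and the deposited p-value is not adjusted. A column of notes in 1 table was not used.

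Tables were joined by Ensembl identifier without version. Signed fold changes were converted to log2, and FDRs were computed by the Benjamini-Hochberg method over each table (13541, 13307, 13419 and 14053 genes for NEPs against vehicle, apoDBs against vehicle, NEPs against apoDBs and spheroids). Depth is unknown. All members were named. Genes of the wider list were named at an FDR below 0.05 with an absolute log2 fold change above 1 in any comparison, and the 5 genes nearest to C3 and to Cfb by Euclidean distance were listed. Lcn2, Saa3, Hp, Serpina3g, Lbp, the chromosome 6 neighbours and absent genes were named after values were seen. Members and lists were chosen with earlier results of these data known. Alternatives were other FDR, fold and adjustment limits, centring, joining by symbol, and leaving out members with a close paralog. The code ran in Python 3.11.15 (pandas 2.3.3, numpy 2.4.6, matplotlib 3.10.9) and was tested on simulated data.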

Additional observations from a re-analysis of the deposited data

How the results depend on the processing

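Joining by symbol and centring changed no count of members. Adjustment over the genes in all 4 tables, which leaves out Serping1, gave 4 members higher in both comparisons with NEPs and the reported counts elsewhere. With FDR limited to 0.0001 and the log2 fold change to more than 2, the members higher numbered 3 with NEPs against vehicle, 3 with NEPs against apoDBs, 1 with apoDBs against vehicle and 0 in spheroids, where 0 were lower. In spheroids, an FDR below 0.01 left 1 member higher and 1 lower, and an FDR below 0.0001 or a Bonferroni adjustment left 0 of each. With apoDBs against vehicle, an FDR below 0.0001, a log2 fold change above 1 or a Bonferroni adjustment each left 1 member higher. Of the wider list, the log2 fold change above 1 left 3 genes lower for NEPs and 2 for apoDBs, each against vehicle. Beyond the genes higher at the stricter limits of the study's methods, shares of all genes at these alternative limits were not calculated. The other counts at these limits therefore cannot be weighed. Without C4b, C1ra and C1s1, which have a close paralog, 3 members were higher with NEPs against vehicle, 2 with NEPs against apoDBs and 0 in spheroids. Their median log2 fold changes were then 4.43 with NEPs against vehicle, 2.77 with NEPs against apoDBs, 1.47 with apoDBs against vehicle and -2.25 in spheroids, a reversed sign against the 0.16 of all 6 members, because C3, Cfb and Serping1 alone were left. Centring gave medians of 2.56, 2.24, 0.30 and 0.24 in the same order. Cfb was kept when members with a close paralog were left out, although 73.0% of its 50-base windows also occur in Gm20547. The counts and medians of that setting are therefore not free of shared sequence. In both comparisons with NEPs its medians are the values of Serping1, which is also counted there as higher. Serping1 may have been listed through the NEP samples alone, so these counts and medians add no support. Stricter limits can only remove calls of single members, and 3 were lost with an FDR below 0.01, 8 with an FDR below 0.0001 and 8 with a Bonferroni adjustment. Centring turned the direction of no called value. No paired analysis was possible because values per sample were not analysed here. Leaving out each replicate, other pseudocounts and other low-value filters were not run for the same reason. Depth is unknown, and each FDR rests on 3 samples a condition.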
